A study of Mus musculus with 6 samples.

Results

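The 10 genes described here mark endothelial cells, the lining of blood vessels, and include the receptors through which vascular endothelial growth factor (VEGF) and the angiopoietins act. They are Emcn, Plvap, Eng, Egfl7, Kdr, Flt1, Pecam1, Cdh5, Tie1 and Tek, chosen by name, and all 10 were found once among the 25805 genes listed. RNA was sequenced from whole mouse kidney after ischaemia-reperfusion injury (IRI), in which renal blood flow is stopped and then restored. The 3 wild-type libraries (genotype WT, treatment IRI) and the 3 libraries labelled knockout (genotype CXCR2 knockout, treatment IRI) were all injured. Cxcr2 encodes a chemokine receptor best known from neutrophils. The labels give no strain, sex, age, time after injury or way of deleting the gene, and nothing in them ties a library to its own animal. The p-values therefore measure only how far these samples spread, which may be technical variation.

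Endothelial cells form the capillaries around the tubules, the glomerular tuft, the vasa recta and the larger renal vessels. VEGF-A, made mainly by podocytes and tubule cells in the kidney, signals through VEGFR2 (Kdr), while VEGFR1 (Flt1) binds it tightly and signals weakly. Angiopoietin-1 activates TIE2 (Tek), angiopoietin-2 can oppose it, and TIE1 is a related receptor that modulates TIE2. Vessels around the tubules are a known site of loss after ischaemic injury.

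The start-site sequences of these genes are shown because the genes are expressed together in endothelium, where transcription factors of the ETS family are known regulators. RefSeq windows on GRCm38.p6, from 250 bases before the start site to 50 after it, were found for 7 of the 10 genes. Capitals mark AGGAAG, a common ETS core, or its reverse complement CTTCCT, with no overlap between matches.
Emcn, chr3:137340828-137341127, plus strand: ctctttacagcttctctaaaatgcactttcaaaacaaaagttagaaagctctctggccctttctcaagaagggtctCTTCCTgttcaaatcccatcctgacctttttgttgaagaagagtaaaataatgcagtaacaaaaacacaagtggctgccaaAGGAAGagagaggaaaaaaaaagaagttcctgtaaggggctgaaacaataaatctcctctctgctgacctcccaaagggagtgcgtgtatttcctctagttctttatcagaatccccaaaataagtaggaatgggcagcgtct
Eng, chr2:32646345-32646644, plus strand: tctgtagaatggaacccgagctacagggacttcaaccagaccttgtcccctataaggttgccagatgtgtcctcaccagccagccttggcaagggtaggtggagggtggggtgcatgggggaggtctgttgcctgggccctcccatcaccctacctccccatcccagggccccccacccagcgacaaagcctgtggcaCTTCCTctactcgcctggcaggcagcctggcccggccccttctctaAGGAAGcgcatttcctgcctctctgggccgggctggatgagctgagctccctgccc
Flt1, chr5:147725962-147726261, minus strand: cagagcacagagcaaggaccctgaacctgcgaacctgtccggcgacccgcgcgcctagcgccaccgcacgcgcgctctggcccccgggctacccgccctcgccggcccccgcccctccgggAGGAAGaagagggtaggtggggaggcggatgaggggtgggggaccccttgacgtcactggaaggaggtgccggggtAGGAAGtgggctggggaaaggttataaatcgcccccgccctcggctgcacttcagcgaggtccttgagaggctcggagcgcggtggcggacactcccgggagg
Kdr, chr5:75978406-75978705, minus strand: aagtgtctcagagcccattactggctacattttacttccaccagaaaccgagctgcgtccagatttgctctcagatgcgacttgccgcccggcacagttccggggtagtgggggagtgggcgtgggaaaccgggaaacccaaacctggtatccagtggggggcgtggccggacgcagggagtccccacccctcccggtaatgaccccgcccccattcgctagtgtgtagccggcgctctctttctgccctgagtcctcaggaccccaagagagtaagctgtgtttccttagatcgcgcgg
The motif was found in 5 of the 7 genes with a window, against 38.4% of all 27025 genes with one. Counted by window, it was found in 6 of the 9 windows of these genes, against 35.4% of 32851 windows of 300 bases. In Emcn the match as written began 93 bases before the start site, in Eng 6 bases and in Flt1 129 and 53 bases before it. Neither AGGAAG nor CTTCCT was in the windows of Kdr and Tek, where other forms of the site were not searched for. These matches describe the sequence and were not tested as binding sites. Egfl7 also holds a microRNA gene, whose main product is well known from endothelium. The seed, bases 2 to 8, is in capitals.
mmu-miR-126a-3p, chr2:26591402-26591423, plus strand: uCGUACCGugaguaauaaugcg
It lies within Egfl7, in an exon of some annotated transcripts, and its own level was not analysed here.

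On mm10, as the files give the genes, Emcn (ENSMUSG00000054690) spans chr3:137341067-137432185 on the plus strand, Plvap (ENSMUSG00000034845) spans chr8:71497765-71511752 on the minus strand, Eng (ENSMUSG00000026814) spans chr2:32646595-32682669 on the plus strand and Egfl7 (ENSMUSG00000026921) spans chr2:26580014-26593120 on the plus strand. The receptor genes lie in pairs on a chromosome, Kdr (ENSMUSG00000062960) spans chr5:75932827-75978458 on the minus strand and Flt1 (ENSMUSG00000029648) spans chr5:147561604-147726011 on the minus strand, and Tie1 (ENSMUSG00000033191) spans chr4:118471191-118490061 on the minus strand and Tek (ENSMUSG00000006386) spans chr4:94739289-94874976 on the plus strand. Of the adhesion genes, Pecam1 (ENSMUSG00000020717) spans chr11:106654217-106750628 on the minus strand and Cdh5 (ENSMUSG00000031871) spans chr8:104101625-104144511 on the plus strand.

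The values are normalized counts, that is, reads per gene divided by 1 size factor for the library. The libraries held 15518083 to 20356601 recovered reads, and the 10 genes had 153 to 6296 reads in each. Cxcr2 itself had no lower level under the knockout label, where it stood at 98.0, 36.8 and 56.6 normalized counts (libraries 1 to 3), than in wild type, where it stood at 15.9, 88.8 and 56.9. Reads outside a deleted part check nothing, and the labels do not name that part, so each direction below is between labels. Fat cell transcripts stood apart in labelled-knockout library 1, where the 14 fat cell markers summed to 63535 against 3664 to 5625 in wild type and 4658 and 6138 in the other labelled-knockout libraries. Adipoq, the fat hormone adiponectin, was at 0 in wild-type libraries 2 and 3 and labelled-knockout library 3, at 97.8 in wild-type library 1 and 96.8 in labelled-knockout library 2, and at 2174 in labelled-knockout library 1. Fat tissue has endothelium of its own.

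Per kilobase of exon, Plvap was the highest of the 10 genes in all 6 libraries, followed by Eng. In wild type Plvap stood at 2423 ± 558 normalized counts per kilobase (SD, n = 3), Eng at 994 ± 236 and Egfl7 at 397 ± 94.3. Pecam1 (266 ± 73.9), Emcn (250 ± 85.4) and Tie1 (188 ± 45.4) followed in that order in each wild-type library. Cdh5 (154 ± 36.4) and Tek (144 ± 50.03) changed places between libraries, and Kdr (120 ± 45.6) and Flt1 (102 ± 40.0) came last. The spread of these neighbours overlapped from Egfl7 down, although the order within a library was nearly fixed. The wild-type levels lay between the 67.5th and the 98.4th percentile of the 21721 genes tested, so endothelial RNA was well represented. Below Plvap and Eng, the order in the libraries labelled knockout varied from library to library. Cdh5 ranked 3, 5 and 4 in labelled-knockout libraries 1 to 3, against 7 or 8 in wild type, and Emcn ranked 7, 7 and 6 against 5 in each wild-type library.

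**Figure D1:**
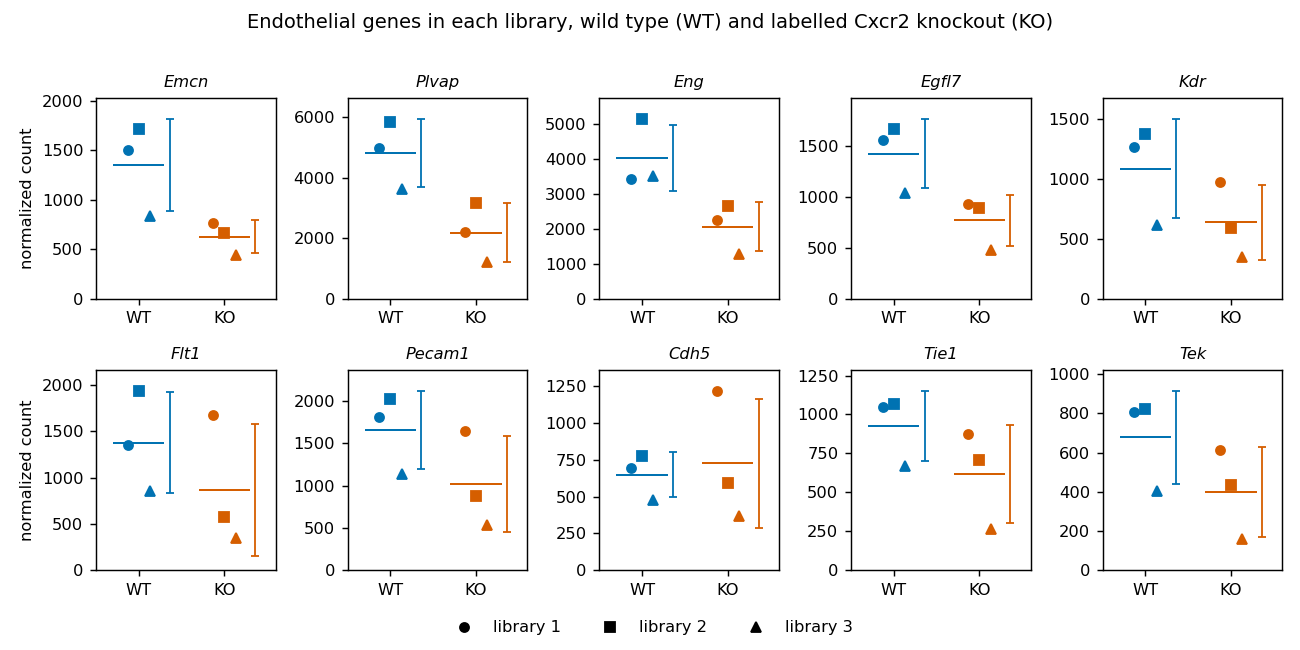
Normalized count (y axis, linear from 0) of each of the 10 genes in the 3 wild-type and 3 labelled-knockout libraries; symbols give the library number, horizontal lines the group mean and bars the SD. The groups are apart for Emcn, Plvap, Eng and Egfl7, and labelled-knockout library 3 is the lowest of all 6 for each gene.

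The comparison of the groups asks how the endothelial transcripts of the injured kidney differ with Cxcr2 genotype. The means of 9 of the 10 genes were lower in the libraries labelled knockout, the median log2 fold change being -0.90 over the 10, against -0.0010 over all 21721 genes tested, of which 50.1% were lower. By limma, adjusted over all genes, 0 of the 10 passed (adjusted p 0.391 to 0.993), where 0% of genes were called lower. The edgeR test (adjusted p 0.358 to 0.897, 0% of genes called lower) and DESeq2 (0.0530 to 0.929, 1.3% called lower) called 0 of the 10 as well. At an unadjusted p under 0.05, 4 of the 10 were lower by limma, against 6.14% of all genes, and 4 by edgeR, against 6.30%. The same number, 4 of 10, had labelled-knockout values that all lay below all wild-type values, against 9.43% of all genes. In bulk RNA, fewer endothelial cells and less RNA per endothelial cell cannot be told apart. The 10 genes share the cell type and are not independent of each other, and they were chosen with earlier results of these data known.

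The 4 genes were Emcn, Plvap, Eng and Egfl7. Emcn encodes endomucin, a sialomucin of capillary and venous endothelium that hinders leukocyte adhesion. Wild-type libraries 1 to 3 held 1505, 1716 and 832 normalized counts of it, and the libraries labelled knockout, in the same order of number, 766, 667 and 442. All values below are given in that order. The groups did not overlap, but the lowest wild-type value was close to the highest labelled-knockout value. The log2 fold change was -1.08 (SE 0.31, 95% interval -1.79 to -0.38, adjusted p = 0.391 by limma). DESeq2 gave an adjusted p of 0.0530.

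Plvap encodes the protein of the diaphragms that span the pores of fenestrated capillaries, such as those around the tubules. It stood at 4990, 5825 and 3630 in wild type and at 2191, 3158 and 1211 in the libraries labelled knockout. The groups did not overlap, although the gap between labelled-knockout library 2 and wild-type library 3 was smaller than the SD of either group. The log2 fold change was -1.22 (SE 0.34, 95% interval -2.01 to -0.42, limma adjusted p = 0.391).

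Eng encodes endoglin, a co-receptor for BMP9 and TGF-beta on endothelium. It stood at 3430, 5123 and 3518 in wild type and at 2255, 2656 and 1275 in the libraries labelled knockout, with no overlap. The log2 fold change was -1.01 (SE 0.29, 95% interval -1.66 to -0.35, limma adjusted p = 0.391). Egfl7, a secreted protein of the vessel wall, stood at 1560, 1668 and 1036 against 932, 895 and 481, also with no overlap (log2 fold change -0.92, SE 0.29, adjusted p = 0.399 by limma). Egfl7 shares 264 exon bases, 7.37% of its exon length, with the gene model Gm20532 on the same strand, and 64 with Agpat2 on the other strand, so reads there cannot be assigned with certainty. Eng shares 61 exon bases with Fpgs on the other strand.

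The VEGF receptors overlapped between groups. Kdr stood at 1267, 1379 and 617 in wild type and at 975, 594 and 347 in the libraries labelled knockout. Its values fell into a low set that held wild-type library 3 and labelled-knockout libraries 2 and 3, and its log2 fold change was -0.81 (SE 0.44, 95% interval -1.83 to 0.22, limma adjusted p = 0.570). Flt1 stood at 1351, 1934 and 854 against 1674, 576 and 348. Labelled-knockout library 1 was the second highest of all 6 for Flt1, while labelled-knockout libraries 2 and 3 were below every wild-type library. The log2 fold change of Flt1 was -0.91 (SE 0.58, 95% interval -2.29 to 0.47, limma adjusted p = 0.620).

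The Tie receptors overlapped too. Tek stood at 807, 820 and 405 in wild type and at 611, 433 and 157 in the libraries labelled knockout (log2 fold change -0.89, SE 0.52, adjusted p = 0.594 by limma). Tie1 stood at 1046, 1065 and 669 against 873, 708 and 267 (-0.72, SE 0.44, adjusted p = 0.603 by limma). For both, labelled-knockout libraries 1 and 2 lay between wild-type library 3 and the other wild-type libraries, and labelled-knockout library 3 was far below.

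Of the adhesion genes, Pecam1 encodes CD31, which is also found on platelets and leukocytes. It stood at 1810, 2020 and 1139 in wild type and at 1641, 875 and 533 in the libraries labelled knockout (log2 fold change -0.81, SE 0.41, adjusted p = 0.550 by limma). Its transcripts hold a stretch of up to 186 bases that other genes carry at 95% identity or more, so a part of its count is uncertain. Cdh5 encodes VE-cadherin, the adhesion protein of endothelial junctions. It stood at 695, 773 and 478 in wild type and at 1213, 594 and 369 in the libraries labelled knockout. Labelled-knockout library 1 was the highest of all 6, and the log2 fold change was 0.018 (SE 0.42, 95% interval -0.95 to 0.99, limma adjusted p = 0.993). That interval allows a change of nearly 1 log2 unit either way.

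**Figure D2:**
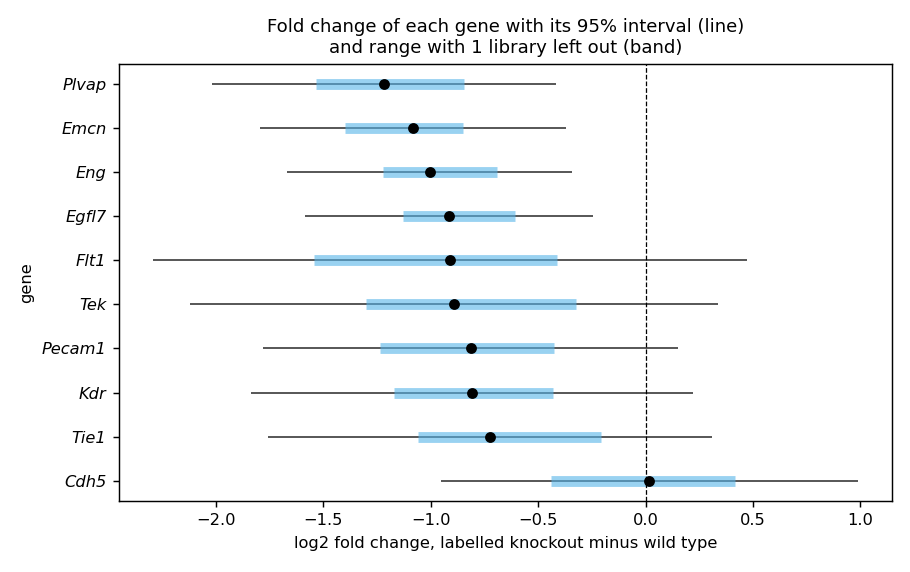
Log2 fold change of labelled knockout minus wild type (x axis) for each of the 10 genes (y axis), with the limma 95% interval as a line and the range over the 6 fits that each leave out 1 library as a band. The interval lies wholly below 0 for Plvap, Emcn, Eng and Egfl7, and Cdh5 sits at 0.018 with a band on both sides of 0.

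The 3 libraries labelled knockout contributed unequally. Relative to the wild-type mean, the median of the 10 genes stood (log2) at -0.074, -0.61 and -1.61 in the libraries labelled knockout and at 0.17, 0.34 and -0.47 in wild type. Labelled-knockout library 3 lay below all 3 wild-type libraries for 10 of the 10 genes, against 29.7% of all genes. Labelled-knockout library 2 did so for 7, against 27.2%, and labelled-knockout library 1 for 4, against 34.1%. The latter lay above all 3 for 1 gene, Cdh5, against 35.1%, and labelled-knockout library 3 was the lowest of all 6 for 10, against 16.4%. Wild type was not uniform either, since library 2 was its highest for 10 of the 10 genes and library 3 its lowest for 9, against 33.6% and 35.8% of all genes. Without labelled-knockout library 3 the median log2 fold change of the 10 was -0.43, with Tie1 at -0.21 and Tek at -0.32. Without labelled-knockout library 1 it was -1.20, with Flt1 at -1.54 and Cdh5 at -0.44, and 7 genes were lower at an unadjusted p under 0.05, against 7.91% of all genes.

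Wild-type library 1 and labelled-knockout library 2 had almost equal levels of Adipoq, but the 14 fat cell markers summed to 4390 and 6138 in them. The medians of these markers were 2.39 and 3.27 (log2, wild-type mean at 0), so the match rests on Adipoq alone. All 10 genes were lower in labelled-knockout library 2 than in wild-type library 1, against 50% of all genes. In the libraries with Adipoq at 0, all 10 genes were lower in labelled-knockout library 3 than in wild-type libraries 2 and 3, against 35.4% of all genes. This follows from labelled-knockout library 3 being the lowest of all 6 for each gene, so it is not a separate result. These pairings were chosen after the values were seen and hold 1 or 2 libraries a side, so they do not test the part of fat tissue. Labelled-knockout library 1 had the highest sum of fat cell transcripts. It was also the highest of all 6 for Lpl (20144 against 3644 to 5576 elsewhere), a gene expressed outside endothelium too. The same held for Selp, encoding P-selectin (219 against 4.55 to 26.8), and the venule receptor gene Ackr1 (93.6 against 0 to 1.85). Plvap (2191) and Emcn (766) were below every wild-type library there, as were Eng and Egfl7. The part of fat tissue in the high Cdh5 and Flt1 of labelled-knockout library 1 was not tested. Lpl, Selp and Ackr1 were named after their values were seen.

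Within a library, every other gene of the set was lower relative to Cdh5 in the libraries labelled knockout. The ratios are of normalized counts and are not divided by length. Pecam1 was 2.61, 2.61 and 2.38 times Cdh5 in wild type and 1.35, 1.47 and 1.44 times in the libraries labelled knockout. Both groups were tight, and they lay far apart. Plvap was 7.18, 7.53 and 7.60 times Cdh5 in wild type and 1.81, 5.31 and 3.28 times in the libraries labelled knockout. Egfl7 was 2.25, 2.16 and 2.17 times against 0.769, 1.50 and 1.30 times, and Kdr 1.82, 1.78 and 1.29 times against 0.803, 1.00 and 0.939 times. The wild-type values of Plvap and Egfl7 hardly varied, while those in the libraries labelled knockout did.

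For all 9 genes the groups did not overlap in this ratio, against 4.77% of all 21721 genes, and the mean difference ran from -1.24 (Plvap) to -0.74 (Tie1) on the log2 scale. Among all 45 pairs of the 10 genes, 10 did not overlap between groups, 9 of them with Cdh5 and the other Plvap with Tie1. Each of these 10 had an exact two-sided permutation p of 0.1, the smallest that 3 against 3 libraries can give, and 0.45 after adjustment over the 45 pairs. Cdh5 was singled out after the values were seen, and the 9 ratios share it, so they are not independent. The share of non-overlapping pairs among all genes was not counted, and 4.77% is for ratios to Cdh5 with the labelled knockout lower.

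**Figure D3:**
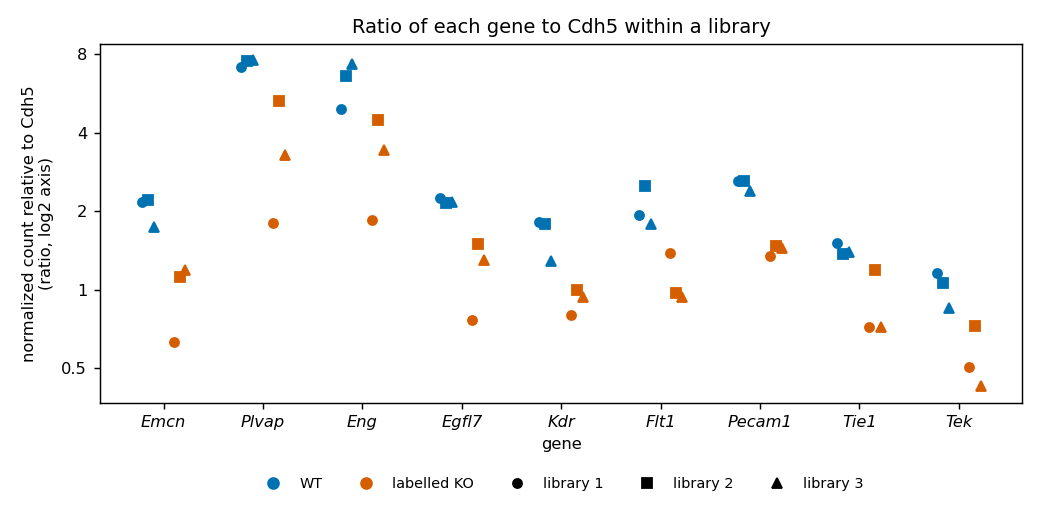
Ratio of the normalized count of 9 endothelial genes (x axis) to that of Cdh5 in the same library (y axis, log2 axis), for wild-type and labelled-knockout libraries; symbols give the library number. For each gene the 3 labelled-knockout points lie below the 3 wild-type points, as for Pecam1 at 1.35 to 1.47 against 2.38 to 2.61.

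The balance within receptor pairs was compared as log2 ratios. Flt1 relative to Kdr was 1.07, 1.40 and 1.38 in wild type against 1.72, 0.969 and 1.00. The difference in mean log2 ratio was -0.10, with an exact permutation p of 0.8 (0.9 adjusted over 3 ratios). Tie1 relative to Tek was 1.30, 1.30 and 1.65 against 1.43, 1.63 and 1.69, a difference of 0.17 with an exact permutation p of 0.3 (adjusted 0.9). Angpt2 relative to Angpt1 was 0.423, 1.09 and 0.877 against 0.767, 0.888 and 0.690, a difference of 0.073 with an exact permutation p of 0.9 (adjusted 0.9). These tests were two-sided and could not go below 0.1, so they do not show that the ratios were alike.

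Of the VEGF ligands, Vegfa and Vegfb had higher means and Vegfd and Pgf lower means in the libraries labelled knockout, with no call. Vegfa stood at 3754, 2707 and 3584 in wild type and at 7093, 4449 and 3022 in the libraries labelled knockout. Labelled-knockout libraries 1 and 2 were above every wild-type library, and the log2 fold change was 0.46 (SE 0.30, adjusted p = 0.617 by limma). Vegfb, a ligand of VEGFR1 only, stood at 848, 768 and 1246 against 1906, 1261 and 1044 (0.54, SE 0.26, adjusted p = 0.532 by limma). The 15 proximal tubule markers had medians of 1.16, 0.34 and -0.14 in the libraries labelled knockout (log2, wild-type mean at 0), the order of Vegfa. Of the 15, 10 had higher and 5 lower means, against 50.1% of all genes lower. Their sums, 402399, 291614 and 391586 in wild type and 372880, 311079 and 334596 in the libraries labelled knockout, did not have that order. The part of tubule cells in the level of Vegfa was not tested.

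Other VEGF genes were low or overlapped. Vegfd, a ligand of VEGFR3, stood at 131, 202 and 99.0 against 117, 47.4 and 19.6 (-1.50, SE 0.61, adjusted p = 0.467 by limma). Vegfc, the main ligand of VEGFR3, had a log2 fold change of 0.061 and Pgf, a ligand of VEGFR1, of -0.74. The co-receptor gene Nrp1, which is also expressed outside endothelium, differed little between libraries, at 999 to 1280 in wild type and 1003 to 1206 in the libraries labelled knockout (-0.064, 95% interval -0.43 to 0.31). Nrp2 (-0.71) and Flt4, which encodes VEGFR3 (-0.44), had lower means with overlap. Of the 8 genes of this list, 0 passed limma, edgeR or DESeq2. At an unadjusted limma p under 0.05, 1, Vegfd, was lower, against 6.14% of all genes.

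**Figure D4:**
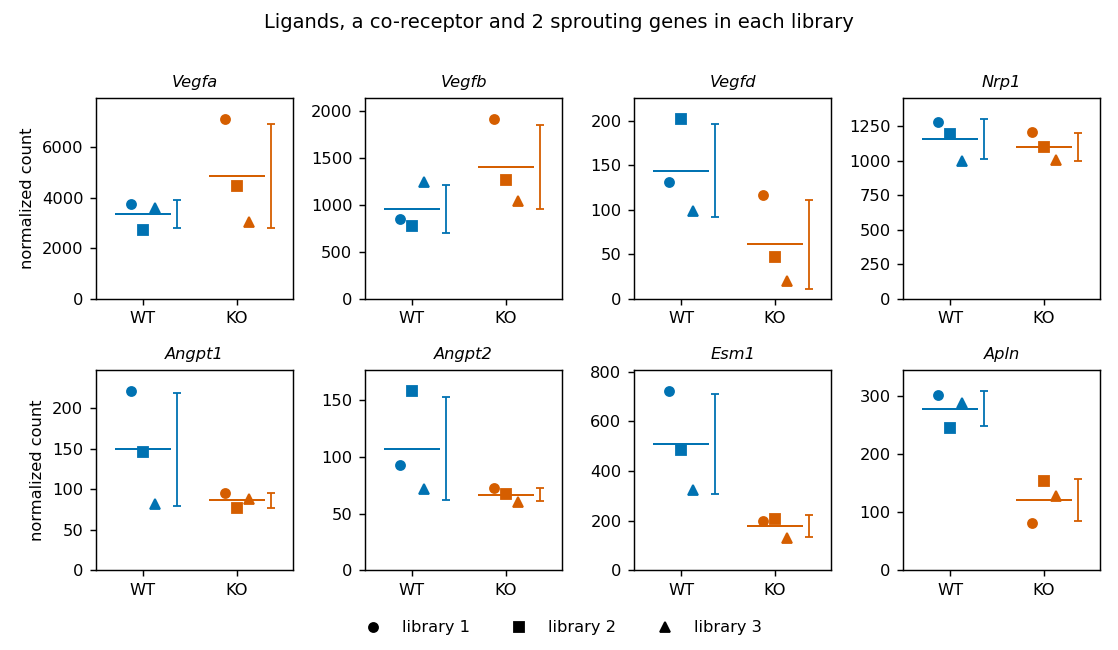
Normalized count (y axis, linear from 0) of 3 VEGF ligand genes, the co-receptor gene Nrp1, Angpt1 and Angpt2, and the sprouting genes Esm1 and Apln in each library; symbols give the library number, lines the group mean and bars the SD. Vegfa is highest in labelled-knockout library 1 at 7093, while Esm1 and Apln are lower in all 3 labelled-knockout libraries than in any wild-type library.

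Among the partners of the Tie receptors, Angpt1, made by cells around the vessel, stood at 221, 145 and 81.9 in wild type and at 94.7, 76.5 and 88.5 in the libraries labelled knockout (-0.67, SE 0.38, adjusted p = 0.577 by limma). Angpt2, which endothelium itself releases, stood at 92.8, 158 and 71.7 against 72.4, 67.8 and 60.7 (-0.60, SE 0.36, adjusted p = 0.593 by limma). Ptprb, the phosphatase VE-PTP that restrains TIE2, had a log2 fold change of -0.73, Svep1, a matrix protein that binds TIE1, of -0.89, and the adaptor gene Dok2 of 0.056. Angpt4 was low, at 20.5 to 27.6 in wild type and 4.46, 21.3 and 5.15 in the libraries labelled knockout (-1.47). Of these 6 genes, 0 passed limma, edgeR or DESeq2. At an unadjusted limma p under 0.05, 1, Angpt4, was lower, against 6.14% of all genes.

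Endoglin acts with the receptor ALK1 (Acvrl1), and ID proteins are textbook targets of that pathway and of BMP signalling in other cells. Id1 stood at 1497, 1298 and 1357 in wild type and at 392, 550 and 514 in the libraries labelled knockout, a log2 fold change of -1.52 (SE 0.18, adjusted p = 0.069 by limma). It fell by DESeq2's test (adjusted p = 2.88e-08) and by limma without labelled-knockout library 1. Id3 stood at 2809, 2719 and 2992 against 743, 1505 and 1609 and fell by DESeq2's test only (limma adjusted p = 0.373, DESeq2 adjusted p = 0.0208). Id2 had a log2 fold change of -0.42, and Bmp6, a BMP ligand, of 0.60 with all labelled-knockout values above wild type, as for 8.27% of all genes. Of the 13 genes of this list that were measured, 3 were lower and 1 was higher at an unadjusted limma p under 0.05. Over all genes, 6.14% were lower and 3.94% higher at that threshold. DESeq2 called 2 of the 12 list genes with an adjusted p lower, against 1.3% of all genes. Id1 and Id3 are expressed in many cell types.

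Endothelial transcription factors had lower means in 19 of 20 cases, against 50.1% of all genes, with a median log2 fold change of -0.59. At an unadjusted limma p under 0.05, 5 were lower, against 6.14% of all genes. Elk3, an ETS factor, stood at 540, 766 and 502 in wild type and at 356, 376 and 271 in the libraries labelled knockout (-0.84, SE 0.23, adjusted p = 0.383 by limma). The groups were apart for Elk3, as they were for Mef2c (-0.98), Sox17, a factor of arterial endothelium (-0.68), and the flow-induced gene Klf2 (-0.47). No factor passed limma, edgeR or DESeq2. Their median was -0.034, -0.44 and -1.06 across the libraries labelled knockout, in the same order as the 10 genes.

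Among 30 other surface, junction and cytoplasmic endothelial genes, 27 had lower means (median -0.64), against 50.1% of all genes. At an unadjusted limma p under 0.05, 6 were lower, against 6.14% of all genes. None passed limma or edgeR, and DESeq2 called 2 lower, against 1.3% of all genes. Ecscr, an endothelial surface protein, stood at 308, 405 and 230 against 150, 142 and 122 and fell by DESeq2's test (adjusted p = 0.0108, limma adjusted p = 0.373). So did Exoc3l2, linked to VEGF receptor trafficking, at 1148, 1658 and 945 against 539, 714 and 350 (DESeq2 adjusted p = 0.0214). Arhgef15 (-0.91) and She (-1.27) came next by p. Like Cdh5, the junction gene Cldn5 was highest in labelled-knockout library 1, at 840 against 226 to 345 in the other 5 libraries, and it was named after its values were seen.

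Genes of sprouting endothelium differed among themselves. Esm1, a secreted product of tip cells that VEGF induces, stood at 721, 485 and 322 in wild type and at 200, 208 and 129 in the libraries labelled knockout. Its log2 fold change was -1.46 (SE 0.33), and it fell by DESeq2's test (adjusted p = 0.00592, limma adjusted p = 0.373). Apln, the tip cell peptide apelin, stood at 302, 244 and 289 against 81.3, 154 and 129 (-1.23, SE 0.29, DESeq2 adjusted p = 0.0142, limma adjusted p = 0.373). Both were low in labelled-knockout library 1, where Cdh5 and Flt1 were high. Of the 15 activation and sprouting genes, 7 had lower and 8 higher means, against 50.1% of all genes lower. Plaur (-0.37) and the adhesion gene Icam1 (0.53) were next by p. DESeq2 called 2 of the 13 list genes with an adjusted p lower, against 1.3% of all genes.

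Genes of vessel segments were tested as well. Of 12 arterial genes, 8 had lower means (median -0.37), against 50.1% of all genes. First by p were Sema3g (-0.44), Sox17, Fbln5 (-1.56) and Mgp (-1.30). Of 9 peritubular and venous genes, 8 were lower (median -0.39), against 50.1% of all genes. Apln was lower by DESeq2's test, which called 1.3% of all genes lower. Nr2f2 (-0.49), Ephb4 (-0.39) and Igfbp3 (-0.60) had no call. The 10 glomerular genes had a median of 0.22 with 4 lower, among them Ehd3 (-0.59) and Smad6 (-0.44), while Gata5 (1.02) and Sema5a (0.32) had higher means. Several of these genes, such as Lpl and Plat, are expressed outside endothelium too. The 11 Notch genes had a median of -0.25, with the Notch target Heyl at -0.95 and Notch4 at -0.46. Hes1 (-0.25) and Nrarp (-0.64) followed. The differences between these lists were not tested.

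Markers of other cells moved with the endothelial genes to different degrees. Mural cell genes, those of pericytes and smooth muscle, had lower means in 12 of 13 cases, against 50.1% of all genes. Their medians of -0.54, -0.56 and -1.61 in labelled-knockout libraries 1 to 3 placed library 3 lowest, as for the endothelial genes. Their summed level was 7448 to 17044 in wild type and 2993 to 5815 in the libraries labelled knockout. Des (-1.76), Pdgfrb (-1.51), Tagln (-2.86) and Acta2 (-2.43) fell by DESeq2's test, which called 1.3% of all genes lower, with no call by limma. Podocyte markers summed to 9274 to 11099 in wild type and 9856 to 12217 in the libraries labelled knockout, and 8 of 10 had higher means, with Ptpro (0.56) and Wt1 (0.48) higher and Tcf21 (-1.38) lower at an unadjusted limma p under 0.05, and Nphs1 at 0.52. The part of cell composition in the endothelial values was not tested.

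Leukocyte markers summed to 6328 to 11624 in wild type and 5630 to 14181 in the libraries labelled knockout, with 9 of 16 higher. By p, Tyrobp (-0.76), Cd68 (-0.37), Cd52 (-0.58) and Itgb2 (0.56) came first. The 8 platelet and megakaryocyte markers measured summed to 470 to 582 and to 225 to 654, and Gp9 was at 0 in wild-type libraries 2 and 3. Their members of smallest p were Pf4 (-1.66), Itgb3 (-0.66), Treml1 (1.20) and Gp9 (1.55). Both cell types express Pecam1, which stood at 0.028, -0.88 and -1.59 (log2, wild-type mean at 0) in the libraries labelled knockout. Platelet medians of 2.41, 0.22 and -0.70 had the same order of libraries. Pf4 (-0.69, -2.38 and -1.90) and Itgb3 (-0.18, -1.05 and -0.74) did not, and Treml1 and Gp9 had at most 13 and 15 reads. Leukocyte medians of 0.61, -0.46 and 0.073 did not have that order either. The part of these cells in the level of Pecam1 was not tested.

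**Figure D5:**
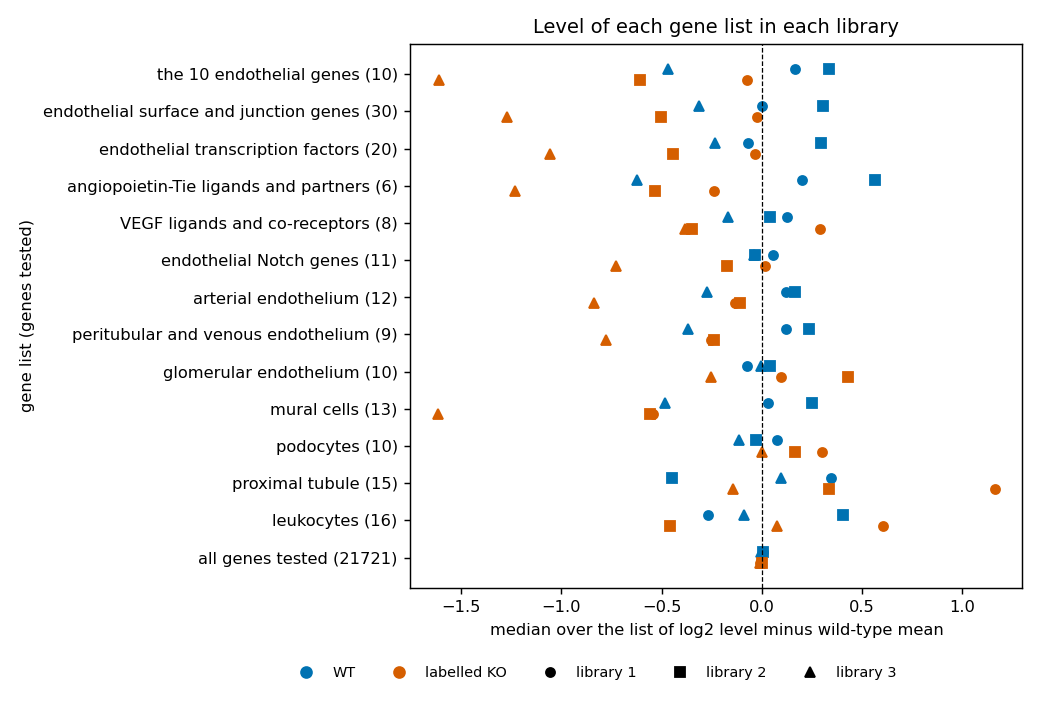
Median over each gene list of the log2 level minus the wild-type mean (x axis) in each library, for 13 lists and all genes tested (y axis, with the number of genes). The 10 endothelial genes and the mural cell genes reach -1.61 in labelled-knockout library 3, while podocyte and proximal tubule markers stay at or above -0.14 in all labelled-knockout libraries.

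The genes most like the 10 in pattern were found by the root mean square difference, over the 6 libraries, between a gene's centred log2 values and the median centred profile of the 10. Among 12132 candidates with a mean of at least 50, the median difference was 0.715. The 8 closest were Fgd5 (0.10), Arap3 (0.10), Timp2 (0.131), Lfng (0.133), C1qc (0.134), Prkch (0.135), Cd34 (0.137) and Robo4 (0.143). Fgd5, an exchange factor known from endothelium, stood at 445, 518 and 296 in wild type and at 397, 261 and 117 in the libraries labelled knockout. Of the 10 genes themselves, Kdr and Pecam1 (0.142 each) and Tie1 (0.145) lay nearest to their common profile, and Cdh5 (0.436), Plvap (0.378), Flt1 (0.343) and Eng (0.336) farthest. Cd34 and Robo4 are endothelial surface genes of the lists, and C1qc is a complement gene of macrophages.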

How the data were processed

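Expression was measured by RNA sequencing of 6 mouse kidney libraries, grouped by the genotype in the labels. Each deposited value is a signal, a read count that the authors scaled by a size factor of the library. This was read from the files, where in every library 100% of values were whole multiples of 1 step within 0.001 reads. Whole reads were recovered from it. The build was mm10 per the submitters' processing notes, and the aligner, counter, strand use and annotation release were not given in the sources used here. Gene lengths are those of the files, and 96.5% equal the exon union of GENCODE M21.

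The test was limma 3.58.1 (trend and robust) on log2(normalized count + 1), for 21721 genes with a mean of at least 1, with Benjamini-Hochberg adjustment at 0.05. Fold changes on this scale understate low genes. The recovered reads were tested with edgeR 4.0.16 (15915 genes, 1 called) and DESeq2 1.42.0 (16222 genes with an adjusted p, 316 called) in R 4.3.3. The ratio tests were exact permutation tests. On simulated counts for this comparison, limma recovered 50% of 2-fold and 100% of 4-fold changes over 21685 genes, with 11 false calls. Their dispersion was set at 0.05 plus 1 over the gene's mean and was not estimated from these libraries. The median of the 10 genes had a pooled SD between libraries of 0.63 (log2). The recovery therefore does not give the power for these genes. Libraries of a group differed beyond sampling noise, with a chi-square of 31.1 to 162 per degree of freedom. The 10 genes and the 20 lists were chosen with earlier results of these data known. Named were the 10 genes, all VEGF and Tie partners, up to 4 genes of smallest p from each other list, and the 8 genes of most like pattern; others are stated to have been named after their values were seen. Alternatives covered scaling, pseudocount, filter, tool, replicate number and leaving out each library.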

Additional observations from a re-analysis of the deposited data

How the results depend on the processing

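All 9 genes with lower means kept that direction, with no call, under all 14 alternatives. With 1 library left out, Cdh5 ran from -0.44 to 0.42, at -0.44 when labelled-knockout library 1 was missing and -0.19 when wild-type library 3 was. The median of the 10 genes ran from -1.20 to -0.43 with 1 library left out and was -0.77 with edgeR and -0.76 with DESeq2. The count of genes called over the whole table, 1, was 4 with TMM scaling, 2 with a pseudocount of 10, 5 with no filter, 316 with DESeq2 and 1 to 6 with 1 library left out. The 4 genes of the set lower at an unadjusted p under 0.05 became 3 to 7 with 1 library left out. With the replicate number as a block, 16 genes were called over the whole table, none of the 10, and 8 of the 10 were lower at an unadjusted p under 0.05, against 6.08% of all genes. The labels do not say that the numbers pair the libraries, the deviations of same-numbered libraries correlated at 0.067, -0.15 and 0.12, and wild-type library 1 correlated best with labelled-knockout library 2, so the block has no stated basis. Des, Pdgfrb and Acta2 were called with it.

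The ratio of Flt1 to Kdr ran from -0.37 to 0.042 and that of Angpt2 to Angpt1 from -0.33 to 0.35 with 1 library left out, both crossing 0. The log2 fold changes of 7 other genes changed sign: Vegfc (-0.18 to 0.28, below 0 without wild-type library 2 or labelled-knockout library 3), Nrp1 (-0.17 to 0.013, above 0 without wild-type library 1 or labelled-knockout library 3), Dok2 (-0.32 to 0.39, below 0 without wild-type library 1 or 3 or labelled-knockout library 1), Aqp1 (-0.022 to 1.22) and Hbb-bt (-0.52 to 1.48) without labelled-knockout library 1, and Ccl21a (-2.08 to 0.22) and Slc4a1 (-1.50 to 0.35) without labelled-knockout library 3. The causes were not tested. In all, 11 of the values of 79 other named genes changed sign and 16 became called, 11 of them with DESeq2. The 10 genes had at least 153 reads in each library, and the effect of depth was not tested.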

Other observations

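Lists that the report does not describe are given here as values. The 6 vasa recta genes had a median log2 fold change of -0.33, and most are expressed in other renal cells too. They include S100a6 (-2.06, lower by DESeq2's test, which called 1.3% of all genes lower), Igfbp7 (0.28), S100a4 (-1.24) and Aqp1 (0.62). Aqp1 is a water channel also of the proximal tubule. The 8 lymphatic genes had a median of -0.38, with Prox1, the lymphatic master factor, at 78.6, 74.9 and 54.6 in wild type and 31.2, 70.7 and 14.4 in the libraries labelled knockout (limma adjusted p = 0.549). By p, Tbx1 (1.69) came before Prox1, and Flt4 and Ccl21a (-1.09) after it. The groups overlapped for each of these genes, Prox1 included, and Tbx1 and Ccl21a were low. The proximal tubule markers of smallest p were Slc5a2 (1.01), Slc22a8 (1.02), Cubn (0.86) and Kap (-0.79). The 7 erythrocyte genes measured had a median of 0.62 and summed to 13550 in labelled-knockout library 1 against 761 to 2973 elsewhere, with Alas2 (1.47), Slc4a1 (-0.79) and Hbb-bt (0.79) among those of smallest p. Fat cell markers of smallest p were Elovl3 (3.98), Ucp1 (4.84), Slc36a2 (4.54) and Pnpla2 (0.94), and all 14 had higher means in the libraries labelled knockout. Their medians were 8.02, 3.27 and -1.38 in labelled-knockout libraries 1 to 3 (log2, wild-type mean at 0). In wild type they were 2.39, -1.29 and -0.88, so labelled-knockout library 3 was the lowest.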
